A study of Mus musculus with 2 samples.

Results

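Solute carriers are membrane proteins that move nutrients, ions and metabolites across the plasma membrane and the membranes of organelles, and their genes carry symbols that start with Slc and a family number. The members are the genes of the predicted-site table whose symbol starts with Slc and a digit and whose highest isoform expression is at least 1 FPKM (sequenced fragments scaled to transcript length and library size). There were 165 such genes, of 224 Slc genes and 15271 genes in the table, with 7558 distinct seed matches and 103 Ago2 clusters of the 6211 clusters listed. By common knowledge 4 members are no carriers (Slc9a3r1 and Slc9a3r2, which encode scaffold proteins, Slc4a1ap, and Slc7a6os, which lies opposite a carrier gene). None of the 4 had a cluster. Cluster and site reads had no part in the rule. Just inside the threshold were Slc25a43 at 1.02 FPKM and Slc22a7 at 1.03 FPKM, and just outside it Slc37a4 at 0.991 FPKM and Slc25a27 at 0.985 FPKM.

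The measurement was iCLIP, which recovers and sequences the RNA that a protein was crosslinked to. Human Ago2 was the single Argonaute family member of these mouse embryonic stem cells and was made under doxycycline control. The tagged line (TT-FHAgo2) carried it with FLAG and HA tags, the control line (TT-Ago2) without a tag, and both were clonal lines grown with serum and leukemia inhibitory factor in 0.1 µg/mL doxycycline and then induced with 2.5 µg/mL for 24 h. With 1 library per line there was no spread between replicates. No test between conditions was possible, and the exact (Clopper-Pearson) 95% intervals given here cover counting error only. Reads are not known to be independent molecules, and overlapping sites share reads, so these intervals are narrower than the true uncertainty.

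The site values rest on 789000 reads of the tagged library. The untagged library enters only as the number that the authors' log2 enrichment implies for each cluster, and its scaling is unknown. The 7 stem cell markers chosen were listed at 215 to 1650 FPKM. Of the markers of other cell types, the site table lists 2 of 5 for fibroblasts (Vim at 45 FPKM and Thy1 at 1.89 FPKM), 1 of 4 for primitive endoderm (Gata4 at 0.165 FPKM), 1 of 3 for trophectoderm (Eomes at 0.957 FPKM) and 2 of 3 for neural cells (Pax6 at 3.95 FPKM and Nes at 0.551 FPKM). Their part in the results was not tested.

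Argonaute proteins are guided by microRNAs, which pair through the seed, bases 2 to 8 from the 5′ end, with a complementary match in the messenger RNA. Binding in the 3' UTR usually leads to lower stability and translation of the target. The seeds that carried most reads in solute carrier genes are shown first, with that of miR-25, because each target stretch below holds the complement of at least 1 of them. The order by reads leans on single sites. A Slc12a7 site held 75 of the 171 miR-19 reads, and a Slc6a6 site 42 of the 153 miR-148 reads. That Slc12a7 site overlaps a miR-17 match, so the same reads can count in both families. The sequences that follow are mature ones from RefSeq (GRCm38.p6), with the seed in capitals.
mmu-miR-17-5p: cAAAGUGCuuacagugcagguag
mmu-miR-20a-5p: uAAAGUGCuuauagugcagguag
mmu-miR-291a-3p: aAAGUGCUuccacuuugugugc
mmu-miR-294-3p: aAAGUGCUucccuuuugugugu
mmu-miR-290a-3p: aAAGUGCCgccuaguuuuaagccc
mmu-miR-19a-3p: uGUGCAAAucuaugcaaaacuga
mmu-miR-148a-3p: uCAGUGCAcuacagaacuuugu
mmu-miR-25-3p: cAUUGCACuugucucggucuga

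The matching 7mers are GCACTTT for miR-17 and miR-20a, AGCACTT for miR-291a and miR-294, GGCACTT for miR-290a-3p, TTTGCAC for miR-19, TGCACTG for miR-148 and GTGCAAT for miR-25. The first 3 of these 7mers share the core CACTT, so a single stretch can match both the miR-17 family and microRNAs of the miR-290 cluster.

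The next set shows stretches of solute carrier messages inside Ago2 clusters, to let the pairing be read directly. Each was joined from overlapping matches of the deposited site table, runs 5′ to 3′ in the sense of the message, and has the listed 7mers and 8mers in capitals. Positions are on mm9.
Slc12a7 (chr13:73953538-73953548, plus strand, 3' UTR): TTTGCACTTTA
Slc12a7 (chr13:73953507-73953518, plus strand, 3' UTR): CCTCTGCACTTT
Slc19a2 (chr1:166195404-166195416, plus strand, 3' UTR): GCACTTTGATgaa
Slc25a12 (chr2:71150511-71150524, minus strand, coding sequence): AGCACTTTAgcagg
Slc25a12 (chr2:71162087-71162099, minus strand, coding sequence): ccggctGCACTTT
Slc25a28 (chr19:43738951-43738959, minus strand, coding sequence): AGCACTTTA
Slc25a13 (chr6:5991935-5991951, minus strand, 3' UTR): GGCACTTTgcccacaac
Slc29a2 (chr19:5031689-5031704, plus strand, 3' UTR): TGCACTGCACTTTAca
Slc36a1 (chr11:55049285-55049301, plus strand, 3' UTR): TACTTGAAGGCACTTTA
Slc30a1 (chr1:193735642-193735653, plus strand, 3' UTR): acaatGCACTTT
Slc31a1 (chr4:62050248-62050259, plus strand, 3' UTR): GGCACTTAggga
Slc48a1 (chr15:97622195-97622217, plus strand, 3' UTR): TGTTATGGGCACTTAagcagaaa
Slc6a6 (chr6:91707459-91707470, plus strand, 3' UTR): GGCACTTAtgta
Slc25a36 (chr9:96978163-96978188, minus strand, 3' UTR): gaccttcactttacactttGTGCAAT

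In Slc12a7 the miR-19 match TTTGCAC and the 8mer GCACTTTA overlap and share the bases GCAC. In Slc29a2 the miR-148 match TGCACTG overlaps GCACTTTA by a single base. The Slc36a1 stretch starts with TACTTGAA, the 8mer of miR-26, and ends in GGCACTTTA, which holds the 7mers of miR-290a-3p and of miR-17.

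Ago2 clusters were found in 43 of the 165 solute carrier genes (26.1%, 95% interval 19.5 to 33.5), against 22% of all 10898 genes of at least 1 FPKM. The other genes alone stood at 22% (2360 of 10733), and at 24% when only those with sites in coding sequence or UTRs were counted. Other genes of matched expression, counted with or without such sites, had a share of 20.1%. Among the members the share was higher at higher expression. From 1 to 5 FPKM it was 7 of 66 (10.6%, 4.37 to 20.6, against 14.5% of other genes with coding or UTR sites). From 5 to 20 FPKM it was 16 of 59 (27.1%, 16.4 to 40.3, against 24.5%). At 20 FPKM or more 20 of 40 members had a cluster (50%, 33.8 to 66.2), against 32.3% of 3152 other genes. Members with a cluster had a median of 18.5 FPKM and members without one 5.33 FPKM, while their median numbers of listed sites were 40 and 43.

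The 103 clusters held 1013 tagged reads against 19 untagged. Their median was 7 reads and 45 nt, against 7 reads and 43 nt in the other 6108 clusters. The 3' UTR held 68 of them (66%, 56 to 75.1, against 61.3% of all clusters) and coding sequence 26 (25.2%, 17.2 to 34.8, against 15.8% of the other clusters). Of the rest 3 were intronic, 3 lay within 5 kb downstream of a gene, 2 were antisense and 1 was in a 5' UTR. Clusters of the same gene are not independent, so these intervals are too narrow. Slc7a3 held 6 of the coding clusters, Slc2a3 4 and Slc25a39 3. With clusters within 50 nt merged and those across junctions left out, the 3' UTR held 51 of 70 (72.9%). The other clusters include 447 intergenic ones (7.32%) and some of histone genes, long noncoding RNAs and pseudogenes. The members, assigned by gene name, had none of these, so the region shares of the members and the other clusters are not like for like. All 9 member clusters across splice junctions were labelled coding sequence. No untagged read was implied for 89 of the 103 (86.4%), and for 41 of the 55 with at least 7 reads (74.5%, 61.0 to 85.3, against 74.3% of other clusters). A cluster of 5 reads, the fewest in the list, against 0 was seen 25 times (24.3%). Among the 94 clusters outside splice junctions, 25 overlapped another cluster of the same gene, so reads summed over a gene's clusters can be counted more than once. A single cluster was listed for 25 genes, 2 for 9 genes and 3 or more for 9 genes.

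The transport groups follow the family number, so a member need not carry the substrate its group is named for. None of the groups is large enough for a close estimate. Mitochondrial carriers had clusters in 11 of 29 genes (37.9%, 20.7 to 57.7), genes of the amino acid transporter families in 9 of 24 (37.5%, 18.8 to 59.4) and metal ion transporters in 6 of 22 (27.3%, 10.7 to 50.2). The families of inorganic ion carriers had them in 5 of 21 genes (23.8%, 8.22 to 47.2), lipid, bile acid, choline and heme transporters in 3 of 10, carboxylate and vitamin transporters in 3 of 14, nucleotide sugar carriers of the Golgi and endoplasmic reticulum in 3 of 21 (14.3%, 3.05 to 36.3) and carriers of nucleosides, organic ions and drugs in 2 of 10. Without the 4 symbols that name no carrier, the amino acid families stood at 9 of 23 (39.1%) and the inorganic ion families at 5 of 18 (27.8%). The sugar transporter families had 21 clusters, all in 1 of their 9 genes. None of the 4 peptide, vesicular and lysosomal transporters had one. The intervals of all groups with a cluster hold the 22% of all genes. Median expression differed between them, from 20.9 FPKM for amino acid transporters and 10.7 FPKM for mitochondrial carriers to 5.13 FPKM for nucleotide sugar carriers and 3.78 FPKM for the nucleoside and organic ion group. Its part in the order of the shares was not tested.

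**Figure D1:**
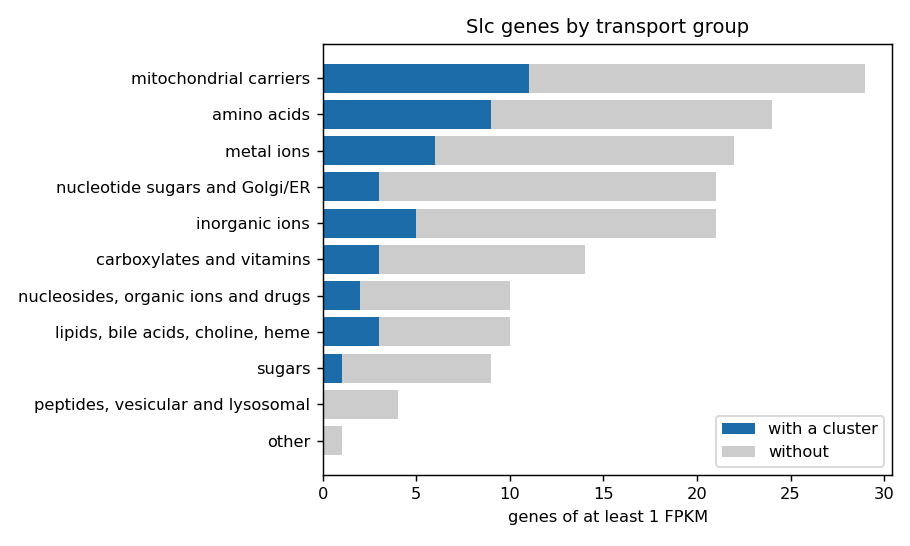
Number of solute carrier genes of at least 1 FPKM in each transport group (horizontal axis, genes), divided into genes with an Ago2 cluster (blue) and without (grey). Mitochondrial carriers and amino acid transporters hold 11 and 9 of the 43 genes with a cluster, while sugar transporters hold 1.

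Slc2a3, which encodes the high-affinity glucose transporter GLUT3, had by far the most clusters. It held 21 of the 103 clusters (20.4%), with 189 tagged reads against 8 untagged, and was listed at 334 FPKM. The clusters spread over 12.6 kb of the gene, on mm9 chromosome 6 from 122677905 to 122690470 on the minus strand. Downstream of the last splice junction with a cluster lay 9 clusters within 2.23 kb, with 74 reads against 3, and these held the 3 clusters over a listed 7mer or 8mer. The match with most reads there, 18, was the 8mer TGCTGCTA of the miR-15/16 family. A further 8 clusters with 77 reads against 3 lay upstream of that junction and were also annotated as 3' UTR in the cluster file. The site table places sites under 5 of these 8 in coding sequence, so the region labels of the deposited files differ here. The remaining clusters were 3 across splice junctions (31 reads against 1) and 1 in coding sequence (7 against 1). The strongest cluster, 1 of those 8, held 22 reads against 1 and no listed 7mer or 8mer, only the 6mer TTTGAG.

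Reads in Slc2a3 were not limited to listed matches. A read was present at 49 of its 59 listed sites (83.1%, 71.0 to 91.6) and at 43 of its 53 control 8mers (81.1%, 68.0 to 90.6). Slc2a1, which encodes the basal glucose transporter GLUT1, had no cluster at 132 FPKM. Its listed sites carried a read in 16 of 33 (48.5%) and its control sites in 14 of 29 (48.3%), with at most 4 reads at a listed site against 25 in Slc2a3. Slc5a3, the myo-inositol cotransporter gene, had 129 listed sites and no cluster at 30.4 FPKM, and 21 of the sites (16.3%) carried a read.

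**Figure D2:**
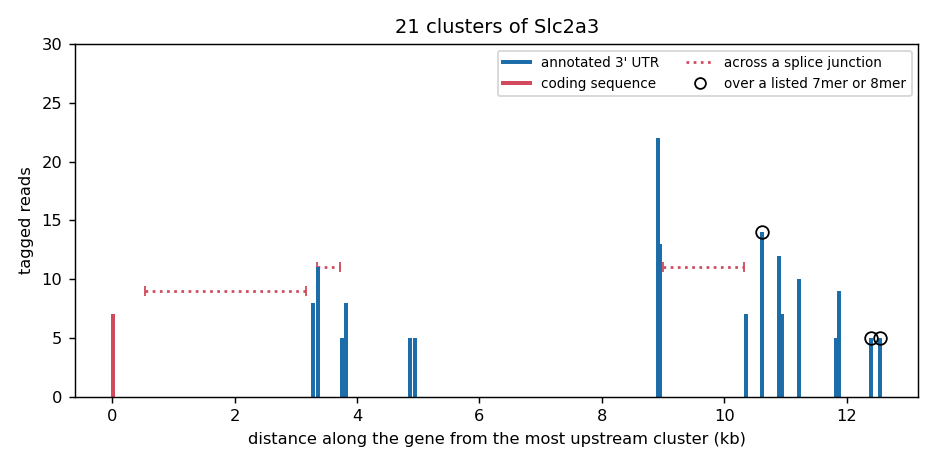
The 21 clusters of Slc2a3 along the gene, by distance in kb from the most upstream cluster (horizontal axis), with the height giving tagged reads. Blue lines are clusters annotated as 3' UTR, the red line is in coding sequence, dotted lines are clusters across a splice junction and circles mark clusters over a listed 7mer or 8mer, all 3 of which lie in the last 2.23 kb.

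The strongest cluster of all members was in the 3' UTR of Slc12a7, a potassium-chloride cotransporter gene, on chromosome 13 from 73953499 to 73953597. It held 70 reads of the tagged library against 4 implied for the untagged one, a plain ratio of 17.5. The deposited enrichment corresponds to both numbers with 1 added and is thus lower. The deposited binomial p was 6.45e-17, a statement about these libraries and not about the lines. The 70 reads are 6.91% of all cluster reads of the members. The overlapping matches TTTGCAC and GCACTTTA shown above lie in the middle of this cluster, at 73953538 to 73953548. They carried 75 and 77 site reads, whereas the upstream stretch had at most 10. Site reads are a measure apart from cluster reads and can exceed them, as they did here, in a cluster of 70. A second cluster just before the strongest one held 9 reads against 0. In contrast to Slc2a3, listed sites of Slc12a7 carried reads in 47 of 87 (54%, 43 to 64.8) and control sites in 18 of 79 (22.8%, 14.1 to 33.6).

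Other ion carriers had weaker clusters. Slc20a1, a sodium-phosphate cotransporter gene, had 3 clusters with 5, 6 and 6 reads against 0, in the 5' UTR and the 3' UTR, and 1 of them lay over the 7mer GTCTACC. Slc12a2 and Slc12a4 had 1 cluster each, of 8 and 6 reads against 0. Slc12a2 encodes a sodium-potassium-chloride cotransporter and Slc12a4 a potassium-chloride cotransporter. Slc20a2, named here after its values were seen as the relative of Slc20a1, had no cluster at 47.4 FPKM.

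Among the mitochondrial carriers, Slc25a39, which is required for glutathione import, had 8 clusters with 74 reads against 0. They lay within 472 nt of chromosome 11, from 102264513 to 102264984, with 3 labelled as coding sequence and 5 as 3' UTR, and they formed 1 cluster when those within 50 nt were merged and the one across a splice junction was left out. The strongest, in coding sequence, held 33 reads against 0 (at least 11-fold over the floor of 3 counts) and covered no listed match. Of the others 1 covered a 7mer and an 8mer (GTGCCTT and CTGAGCCA). Slc25a3, the phosphate carrier gene, had 34, 13 and 5 reads against 0 in 3 clusters. The cluster of 34 covered only 6mers, with 37 reads at CACTAC, and is labelled 3' UTR although the site table places that match in coding sequence. The cluster of 13 covered the miR-148 match TGCACTG in coding sequence, at a PhastCons conservation score of 0.999 on a scale to 1. Slc25a36, a pyrimidine nucleotide carrier gene, had 4 clusters, and the pair that overlap at 1 stretch of its 3' UTR held 16 and 13 reads against 1 each. That stretch, shown above, has the miR-25/92 match GTGCAAT with a score of 0.9999 beside a pair of miR-17 6mers. A further GCACTTT with 17 reads lies 3′ of it.

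Slc25a12 and Slc25a28 had listed matches under coding clusters, as did Slc25a3, Slc16a1 and Slc19a2. Slc25a12 encodes an aspartate-glutamate carrier and Slc25a28 a mitochondrial iron importer. Both had their clusters in coding sequence, Slc25a12 with 6 and 6 reads and Slc25a28 with 6 and 5 reads, each against 0, and none of these had an authors' p under 0.01. In both genes a cluster covered the 9 bases AGCACTTTA, and the conservation scores of these matches were 0.9997 or higher. The second Slc25a12 cluster covered GCACTTT, and that gene was listed at only 1.05 FPKM. Slc25a13, the close relative of Slc25a12, had its cluster (6 reads against 0) in the 3' UTR over GGCACTTT, at scores of 0.009 or less. The ADP/ATP carrier genes Slc25a5 and Slc25a4 had no cluster at 524 FPKM and 143 FPKM. Slc25a5, the most highly expressed member, had a read at 1 of its 14 listed sites. These genes are close paralogs, and no source used here says how reads that match both were counted, so their values are uncertain.

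The amino acid transporters with most clusters differed in where they were bound. Slc7a3, a carrier of cationic amino acids, had 6 clusters, all in coding sequence, within 819 nt of chromosome X from 98277336 to 98278154. They held 23, 15, 7, 6, 5 and 5 reads against 0, merged into 1 cluster without the junction clusters, and none covered a listed 7mer or 8mer. Only 3 listed sites were present in this gene. Slc38a2, a sodium-coupled neutral amino acid transporter gene, had 4 clusters in the 3' UTR (8, 6, 5 and 5 reads against 0), and 1 of them covered the miR-26 match TACTTGAA at a conservation score of 1.0. Slc6a6, which encodes the taurine transporter, had a single cluster of 145 nt in the 3' UTR (chromosome 6, 91707380 to 91707524). It held 28 reads against 0, at least 9.33-fold. Its matches, AATGGAG, GGCACTTA and ACTGTGA among them, had scores of 0.003 or less. The miR-148 6mer GCACTG carried 42 site reads, AATGGAG 28 and the 8mer GGCACTTA 25. At GCACTG this exceeds the 28 tagged reads of the whole cluster, which is a separate measure.

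Slc36a1, a proton-coupled amino acid transporter gene of the lysosome, had 16 and 6 reads against 0 in 2 clusters. The stronger one lay over the composite stretch shown above. Slc1a5, Slc6a8 and Slc1a4 had 1 cluster each, of 12, 13 and 5 reads against 0. Slc7a1 had 10 reads against 1 in a cluster annotated as antisense, and Slc1a1 5 against 0 likewise, so these do not lie on the strand of the gene. No cluster was listed for Slc3a2 and Slc7a5, which encode the heavy and light chain of the large neutral amino acid transporter, at 143 FPKM and 113 FPKM, or for Slc38a4 at 67.9 FPKM. In Slc7a5, 11 of 23 listed sites (47.8%) and 20 of 40 control sites (50%) carried a read, with at most 4 reads at a listed site.

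Slc19a2, which encodes a thiamine transporter, had 7 clusters with 62 reads against 0 at 22.6 FPKM, 6 of them in the 3' UTR. The strongest, at 166195354 to 166195433 of chromosome 1, held 20 reads and was enriched at least 6.67-fold. It covered GCACTTT and CTTTGAT, which overlap and carried 25 reads each. CTTTGAT is the match of miR-291a-5p. Other clusters covered AGCACTT, a miR-27 match and, in coding sequence, overlapping copies of the miR-15/16 match. Across the gene, listed sites carried reads in 32 of 68 (47.1%) and control sites in 25 of 44 (56.8%). Slc16a1, a monocarboxylate transporter gene for lactate and pyruvate, had overlapping coding clusters of 11 and 7 reads against 0, and that of 11 covered CTTTGATA. Its relative Slc16a3, named after its values were seen, had none at 55.0 FPKM.

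The metal carrier genes with a cluster, 6 of 22, had 1 cluster each, except Slc39a1 with 2. In Slc31a1, the copper importer gene, 22 reads against 1 lay at 62050227 to 62050291 of chromosome 4, over the 8mer GGCACTTA, which carried 25 reads and has a conservation score of 0.0012. Slc30a1, the zinc exporter of the plasma membrane, had 20 reads against 0 at 193735623 to 193735683 of chromosome 1, over GCACTTT, with 21 reads and a score of 1.0. The other zinc transporter genes Slc30a3, Slc39a1, Slc39a6 and Slc39a11 had clusters of 5 to 7 reads against 0, and only that of Slc30a3 covered a listed 7mer (GCACTTT). The Slc39a11 cluster was intronic. Slc48a1, which encodes a heme transporter, had 16 reads against 0 along 100 nt of its 3' UTR, and of the 7 listed 7mers and 8mers of the gene 6 held a read. Slc44a1, a choline transporter gene, had 11 reads against 0 and no listed match. Among nucleoside carriers, Slc29a2 had 13 reads against 0 over TGCACTG and GCACTTTA, and Slc29a1 6 against 0 with no listed site in the gene. Among nucleotide sugar carriers, Slc35b4 had 4 clusters with 35 reads against 1, of which 2 were across splice junctions. Slc35a4 had 16 reads against 0.

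**Figure D3:**
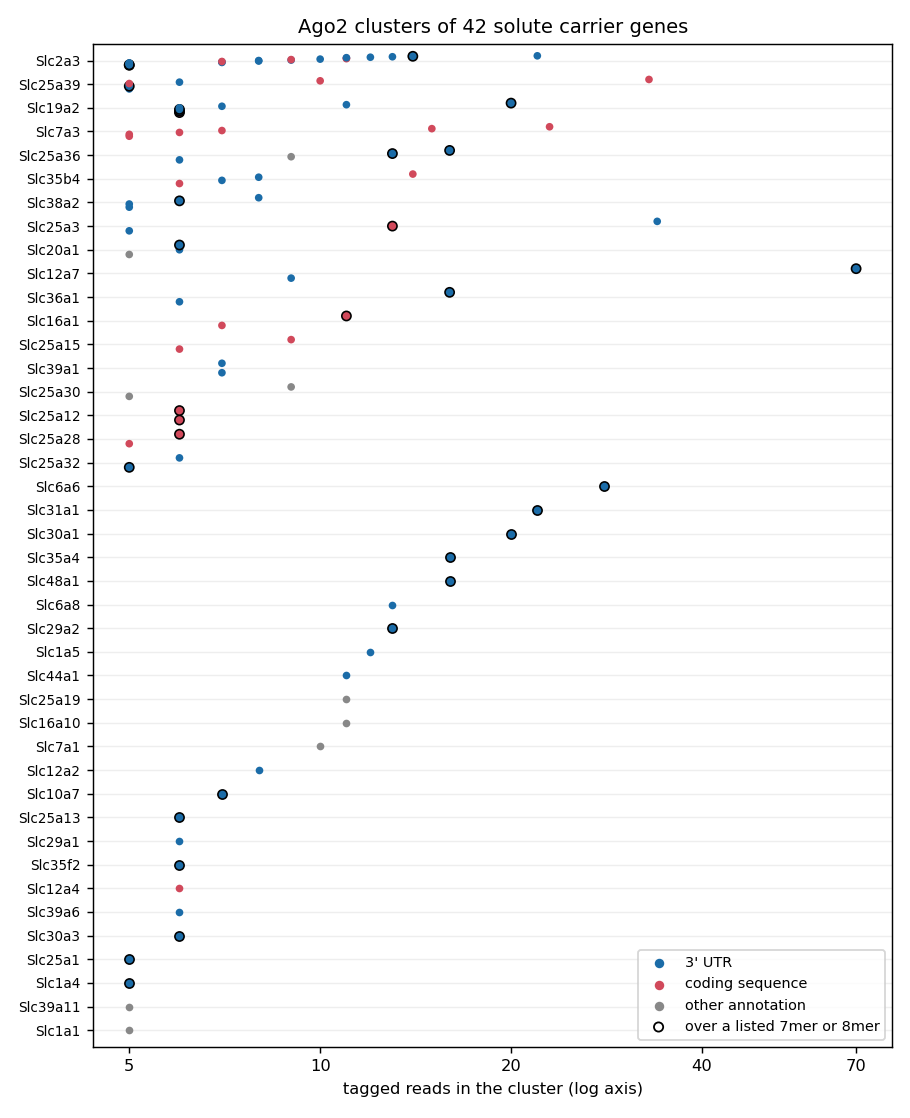
Tagged reads of each of 102 clusters (horizontal, log axis) for 42 of the 43 solute carrier genes with a cluster, coloured by annotation, with a black ring where the cluster covers a listed 7mer or 8mer. The Slc12a7 cluster of 70 reads is the farthest right, and the 6 clusters of Slc7a3 are all in coding sequence.

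**Figure D4:**
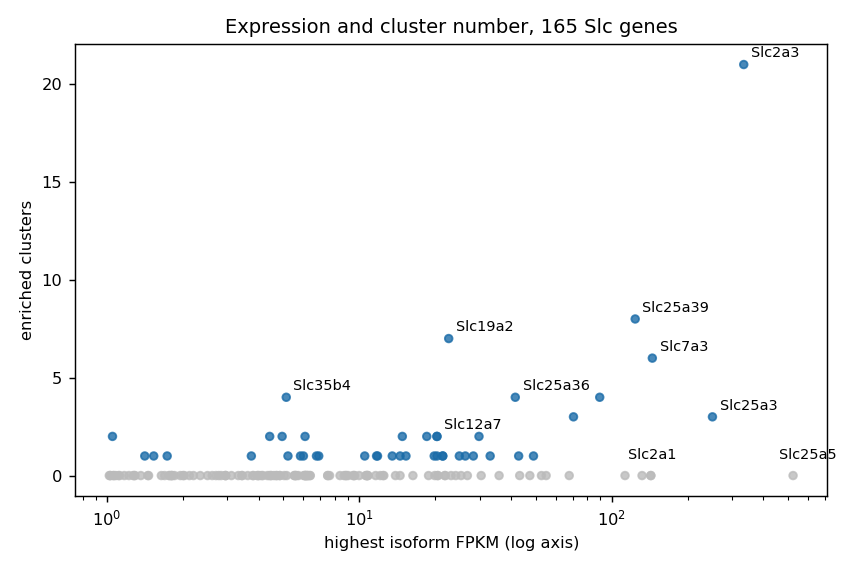
Number of clusters (vertical) against the highest isoform FPKM (horizontal, log axis) for the 165 members, with genes without a cluster in grey. Slc2a3 stands at 21 clusters and 334 FPKM, while Slc25a5 at 524 FPKM and Slc2a1 at 132 FPKM have none.

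Listed seed matches were covered by reads more often than control 8mers in solute carrier genes. A read was present at 1300 of 7558 listed sites (17.2%, 16.4 to 18.1), against 14.5% of listed sites in all genes of at least 1 FPKM. Control 8mers held a read at 905 of 7012 sites (12.9%, 12.1 to 13.7, against 10.2% in all such genes). In 3' UTRs the members stood at 18.4% (17.3 to 19.5) and other genes at 19.1%, and in coding sequence at 16.5% (15.0 to 18.1) and 13.4%. In all, 141 members had a read at a listed site (85.5%, 79.1 to 90.5, against 74.4% of all genes), among them 99 of the 122 without a cluster. Longer matches were covered more often in 3' UTRs, with 25.6% of 8mers (21.2 to 30.5), 22.6% of 7mers (20 to 25.4) and 16.3% of 6mers (15.1 to 17.6), against 24.4%, 22.6% and 17.5% in other genes. Over the 128 members with at least 20 listed and 20 control sites, the listed share was above the control share in 86, below it in 31 and equal in 11. Apart from Slc12a7, the intervals of the listed and the control share lay apart in Slc7a1 (31.9% against 10.7%) and Slc5a3 (16.3% against 4.4%), both with listed above control.

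The seed families differed in support within these genes. Sites of the AAGUGC family (AGCACTT and GGCACTT) held a read in 57 of 107 (53.3%, 43.4 to 63.0), against 44.9% of such sites in all genes of at least 1 FPKM, and 48 members had such a read. Sites of the miR-17 family held one in 50 of 165 (30.3%, 23.4 to 37.9, against 24.8% in other genes), and its 7mers and 8mers alone in 29 of 41 (70.7%, 54.5 to 83.9, against 54.3%). The 7mers and 8mers of the AAGUGC family held one in 44 of 76 (57.9%, against 44.4%). This lies below the miR-17 share, with overlapping intervals in the members. The order of these families thus depended on match length, as 6mers made up more of the miR-17 sites counted. That balance depends in part on the counting, which left out 6mers inside any longer listed match, of the same or another family. A GCACTT inside the miR-17 match GCACTTT counts for miR-17 only. Over all lengths, the miR-19 family stood at 38 of 106 (35.8%, 26.8 to 45.7, against 29%) and the miR-148 family at 42 of 175 (24%, 17.9 to 31, against 22.7%). The miR-15/16 match, with 402 sites the most frequent, held a read in 74 (18.4%, against 19.9%). For 42 of 48 families the interval in the members held the share of other genes, and for 6 it lay above it. The 107 AAGUGC sites thus leave out GCACTT 6mers inside GCACTTT. Of the 107, 20 overlapped a miR-17 site and 13 of these held a read, against 44 of the 87 that overlapped none.

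**Figure D5:**
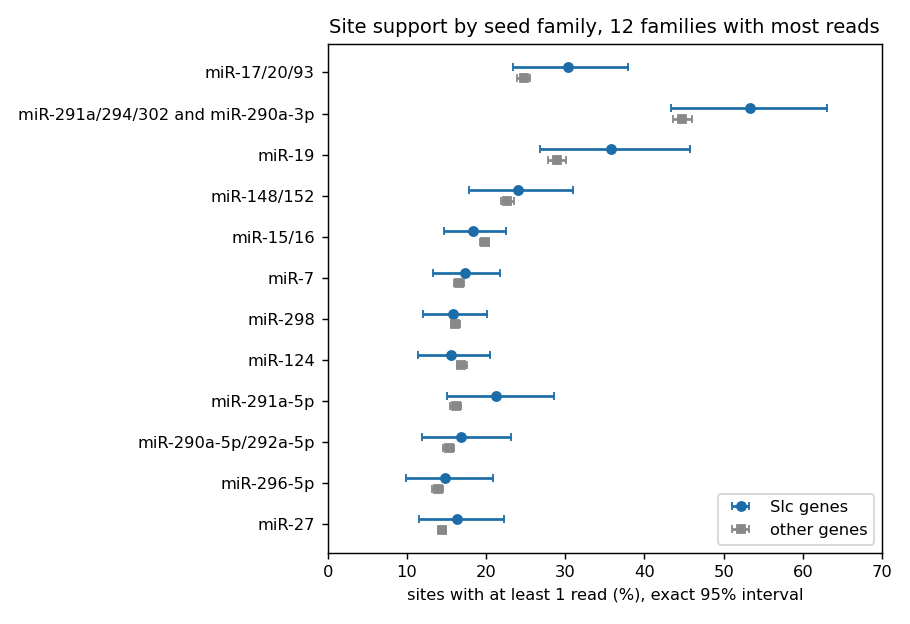
Share of sites with at least 1 read (horizontal, percent) for the 12 seed families with most reads in solute carrier genes, in these genes (blue circles) and in other genes (grey squares), with exact 95% intervals. The family of miR-291a, miR-294 and miR-290a-3p has the highest share in both.

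A listed 7mer or 8mer lay under 33 of the 103 clusters (32%, 23.2 to 42), in 26 genes, against 34.2% of all clusters. In 3' UTRs this was 27 of 68 (39.7%, 28 to 52.3, against 46.4% in other genes). In coding sequence it was 6 of 26 (23.1%, 8.97 to 43.6, against 31.3%). In 16 of the 33, in 14 genes, a covering match held the core CACTT (48.5%, 30.8 to 66.5, against 42.9% of other clusters over such a match). Conservation at these matches varied widely, with a highest PhastCons score of at least 0.5 in 20 of the 33 and under 0.05 in 11. Of the 9 clusters with at least 20 reads, those of Slc12a7, Slc6a6, Slc31a1, Slc30a1 and Slc19a2 covered a listed 7mer or 8mer, and those of Slc25a3, Slc25a39, Slc7a3 and Slc2a3 did not.

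Genes that regulate carriers or assemble with them had clusters as well. Of 25 such genes, 23 were listed at 1 FPKM or more and 14 of these (60.9%, 38.5 to 80.3) had a cluster, against 22% of all genes. The list was chosen with earlier results of these data known and was not matched for expression. At 20 FPKM or more, 32.3% of other genes with coding or UTR sites had a cluster. No difference from other genes is drawn from the share of this list. Txnip and Arrdc4, arrestin-like proteins that lower glucose uptake, had 7 clusters (357 reads against 15) and 3 (16 against 0). Sgk1, a kinase that acts on ion and nutrient carriers, had 11 (114 against 4), Arrdc3 6 (49 against 0) and Nedd4, a ubiquitin ligase that removes carriers from the membrane, 5 (27 against 0). Of the kinases that control cation-chloride cotransporters, Wnk1 had 4 (40 against 0) and Oxsr1 4 (32 against 1), while Stk39, at 0.603 FPKM, had none. Atf4, which drives amino acid transporter genes, had 3 (31 against 1). Bsg, at only 1.14 FPKM, and Emb, at 28.3 FPKM, which escort monocarboxylate transporters to the membrane, had none. Of 20 genes with an Abc symbol at 1 FPKM or more, 7 had a cluster (35%, 15.4 to 59.2, against 22% of all genes), with 5 to 12 tagged reads each. Most of the 20 encode ATP-driven transporters. By common knowledge Abce1, which had a cluster, and Abcf1, Abcf2 and Abcf3, which had none, encode no transporter.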

How the data were processed

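Files of the tagged library only were used. Per the submitters' processing notes, the tools named are TopHat and Bowtie, and the builds NCBIM37 and mm9, without versions or roles. No source used here names the cluster caller. The deposited peak height is a signal, the highest coverage of a cluster. A further deposited text field holds 3 values, the tagged reads, their log2 enrichment against the untagged line and the authors' p-value. Untagged numbers were recovered from the log2 value, within 0.005 in all 6211 clusters. Crosslink positions are other text per the file headers. The authors gave site coverage in rpm. Divided by the worth of 1 read (1.27 rpm), 100% of 1641948 entries came out whole to within 0.001, and these reads were used. Such site reads can exceed the tagged reads of the cluster that covers the site, and no source used here says why. Site reads and cluster reads are thus separate measures. No count test was possible on 1 library. Isoform expression is FPKM, and PhastCons is a conservation score, as deposited. The deposited log2 site coverage was not used further.

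Each site was counted once, and nested matches and control 8mers over listed matches were left out (12225 7mers, 25025 6mers and 170165 control 8mers). Nested matches include those inside a longer listed match of another family. The 966 8mers that extend none of the 50 listed 7mers served as control. Some of them are seed matches of microRNAs outside the listed 50, miR-101 among them. They are thus a comparison set and not a background free of microRNA pairing. A cluster belongs to the gene in its name, in any letter case, and overlap means at least 1 nt on the same strand. Coordinates are 1-based on mm9. Python 3.11.15 with pandas 2.3.3 and scipy 1.17.1 was used, and scripts were tested on simulated data. RefSeq microRNAs matched 44 of the 50 7mers, and the name miR-124 in a plot is textbook knowledge. Members, lists and alternatives were chosen with earlier results of these data known. Genes named are the 12 with most clusters, the 6 with most reads in a cluster, the 6 with most site reads, the 6 of highest FPKM without a cluster, those nearest the threshold and up to 2 per group. Others with a cluster or without were named after their values were seen, and 1 gene with a cluster is counted but not reported by name here. Alternatives were stricter p, other FPKM minimums, 3' UTR only, at least 2 reads, merged clusters, wider overlap and, added after seeing the data, antisense clusters, non-carriers or Slc2a3 left out.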

Additional observations from a re-analysis of the deposited data

Results flagged for a closer look

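Clusters were also listed for 4 Slc genes outside the members, which are below 1 FPKM or carry no expression value here, each above the limit of 3 counts that a count of 0 allows. Slc25a42, a mitochondrial coenzyme A carrier gene listed at 0.223 FPKM, had a 3' UTR cluster of 31 tagged reads against 0 untagged on mm9 chromosome 8 from 72710053 to 72710143. Slc2a4, the insulin-responsive glucose transporter gene listed at 0.296 FPKM, had 19 reads against 0 in 2 clusters of its 3' UTR. Slc9a9 and Slc8a1 had clusters annotated as antisense with 7 reads against 1 and 5 against 0.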

How the results depend on the processing

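No paired analysis was possible because each group had 1 library. The share of members with a cluster was 26.1%, and it was 16.4% with the authors' p under 0.01, 36.4% for genes of at least 5 FPKM and 18.8% for 3' UTR clusters only. The listed-site share of 17.2% became 5.65% with at least 2 reads, 18.4% in 3' UTRs, 21.5% at 5 FPKM or more and 1.48% for overlap with a cluster. The control share of 12.9% became 3.55%, 14.2%, 16.2% and 0.685% in the same order, so listed sites stood above control in each. The AAGUGC share of 53.3% became 29.9% with at least 2 reads and 10.3% for cluster overlap. With 6mers counted too, 55.3% of clusters covered a match, against 32%. Leaving out Slc2a3, a choice made after seeing the data, gave 36.6% for that share and 62.2% for the 3' UTR share. Of the 43 genes with a cluster, 16 had none at p under 0.01, Slc20a1 and Slc29a1 among them. There Slc2a3 had 12 of 21, Slc25a39 2 of 8, Slc19a2 3 of 7 and Slc7a3 3 of 6. Merging clusters within 50 nt, without those across junctions, left 13 in Slc2a3, 4 in Slc19a2 and 1 each in Slc35b4, Slc25a39, Slc7a3, Slc12a7, Slc16a1 and Slc39a1. The other alternatives moved the shares over all members by less than their intervals. There were no replicates, and the median cluster held 7 reads, which limits single clusters.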

Other observations

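Conserved sites of the members were covered by reads more often than the rest. In 3' UTRs, 23.2% of listed sites with a PhastCons score of at least 0.5 held a read (252 of 1084, exact 95% interval 20.8 to 25.9) against 16.9% of the others (15.6 to 18.1), and in other genes the shares were 27% and 15.8%. In coding sequence they were 17.7% (16 to 19.5) and 10.7% (7.91 to 14.1), against 14% and 10.8% in other genes. By transport group, a read was present at 23.7% of 409 listed sites in sugar transporters (13.7% of 350 without Slc2a3, left out after seeing the data), 19.9% of 1013 in mitochondrial carriers and 6.29% of 429 in carriers of nucleosides, organic ions and drugs.

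The deposited crosslink positions could be set against the seed match in 14 clusters of the members that cover 1 listed 7mer or 8mer and have 1 peak position. In 7 of them (50%, 23 to 77) the crosslink lay within 5 nt of the first base of the match, against 43.4% of 747 other clusters. No source used here says whether positions are counted from 0 or 1, and with each moved by 1 nt the count was 4 or 7 of 14, depending on the direction.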
